A study of Mus musculus with 2 samples.

Results

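Genes of the TCF1, LEF1 and Wnt pathway were measured in double-positive (DP) thymocytes of mice with a conditional deletion of Bcl11b. The set held 10 genes: Tcf7 and Lef1, Ctnnb1, Tle3, Axin1, Axin2, Apc, Gsk3b, Dvl2 and Ankrd6. They were found by symbol or accession among 41174 probes, and had 23 probes, of which 18 probes of 9 genes passed the filter on dim signals. Axin2 had no probe that passed. Ankrd6 was chosen by its low log2 ratio on these arrays, so its values are a description and carry no test. The other 9 genes were chosen by pathway, with earlier results of these data known.

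The measurements came from 2 mouse arrays of oligonucleotide probes, each hybridised with 2 RNA samples of DP thymocytes in different dyes. The Bcl11bF/FCD4Cre/Tcra-/- sample (deficient) always carried Cy5 and the TCRa-/- sample (control) carried Cy3. In the deficient mice, Cre driven by Cd4 control sequences acts on floxed Bcl11b alleles. Both groups lack Tcra, a subunit gene of the T cell receptor without which DP cells cannot be selected. The mice had no treatment, per the labels. The study asked what Bcl11b does in DP cells before selection. For the control samples the labels give no Cre and no floxed Bcl11b, and genotype and dye ran together on both arrays, so effects of Cre, of the dyes and of Bcl11b loss cannot be told apart. The arrays are numbered biological replicates 1 and 2, without the mice behind each. The p-values and SE rest on the gap between these 2 arrays, which limma pools with a spread shared by all kept probes. With 1 residual and 2.46 prior degrees of freedom, most of the weight lies on that shared spread.

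Wnt signals stabilise beta-catenin, which otherwise is phosphorylated in a destruction complex of Axin, APC, GSK3 and casein kinase and then degraded. Stabilised beta-catenin binds TCF/LEF proteins on DNA and displaces corepressors of the Groucho/TLE family. In the thymus TCF1, encoded by Tcf7, and LEF1 are needed for T cell commitment, passage through the DP stage and lineage choice. Much of that work does not depend on beta-catenin.

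Ankrd6 was far lower in the deficient cells on both arrays, at 23.1% and 13.0% of the control level. Tcf7 read higher by both of its probes, with mean log2 ratios of 0.69 ± 0.07 and 0.33 ± 0.07, and Tle3 read higher by both of its probes, at 0.51 ± 0.16 and 0.26 ± 0.12. Lef1 and Ctnnb1 lay near 0, with means between -0.11 and 0.15 at the kept probes. Gsk3b read lower by both probes, Apc by 3 of its 4 kept probes, and Axin1 read slightly higher. Values after ± are SE from limma over 2 arrays, and ratios are log2 of deficient over control throughout. No member passed limma's test over all kept probes (Benjamini-Hochberg adjusted p, threshold 0.05). The test called 0.0% of 21538 kept probes, although 5823 had an unadjusted p under 0.05.

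Depth on an array is limited by signal over background. The array software scored 56.5% (replicate 1) and 50.5% (replicate 2) of 43379 non-control spots as well above background for the deficient samples, against 51.7% and 50.6% for the control samples. Bcl11b itself, the floxed gene, read 37.9% and 82.6% of control by its brighter probe and 38.7% and 22.4% by the other, and where these probes lie relative to the deleted part is not given. All 12 DP markers had a kept probe. Of them 9 were lower and 3 higher on both arrays (38.5% and 36.4% of all 14920 genes), with a median of -0.24. Median centring instead gave 3 lower, 6 higher and a median of 0.08. The summed signal of the DP markers was higher in the deficient channel, at 961848 and 969520 against 750003 and 790724 in the control channel. Their extremes were Dntt, at 323788 and 328079 intensity units in deficient cells against 99066 and 120339 in control cells, and Arpp21, at 43040 and 39510 against 67454 and 64615. Without Dntt the summed DP marker signal was lower in the deficient channel on both arrays. Of markers of other cells, 7 of 10 macrophage genes, 5 of 6 NK genes, 6 of 10 stromal or endothelial genes, 0 of 6 B cell genes and 0 of 3 erythroid genes with a kept probe were higher on both arrays. Lower on both were 2 macrophage, 1 NK, 3 B cell and 1 erythroid gene, and 2 of the stromal or endothelial list, Epcam and Krt5. Krt8 of that list read -0.84 and 0.25. Klrk1, Mrc1, Col1a1 and Lum passed the filter only through the deficient channel, in which they are higher. Itgam passed it only through the control channel, in which it is higher. The filter thus favoured the direction these 5 genes show, and nothing is read from the counts of markers of other cells. The NK genes Klrb1c (2.87) and Klrd1 (1.28) and the stromal gene Pdgfrb (1.96) were at least 2-fold higher on both. Of all genes 0.818% were 2-fold higher on both. The summed macrophage signal was 103610 and 107906 in the deficient channel, against 83357 and 37533 in the control channel, and the summed stromal signal was 29991 and 18842 against 29168 and 10010. The summed NK signal was 28138 and 28534 against 14748 and 13770, the summed B cell signal 17087 and 13414 against 25385 and 15171, and the summed erythroid signal 73326 and 134796 against 98003 and 29198. Ncr1, Cd79a, Cdh5 and Klf1 were among the markers with no kept probe. The part of other cells in the members' ratios was not tested, and fewer cells of a type and less RNA per cell cannot be told apart in bulk RNA.

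Start regions of 4 members are shown because the TCF/LEF proteins recognise a short core, CTTTGA or its reverse complement TCAAAG, that can be looked for in them. Each sequence runs from 250 bases before to 50 bases after a RefSeq start in build GRCm38.p6, on the strand of the gene, with matches to the core on either strand in capitals. The Lef1 window, one of 4 for that gene, is chr3:131156044-131156343 (+), the Gsk3b window chr16:38088751-38089050 (+), the Axin2 window chr11:108920099-108920398 (+) and the Ankrd6 window, one of 3, chr4:32950777-32951076 (-). Lef1 and Gsk3b are printed for their matches, Axin2 as a feedback target of the pathway, and Ankrd6 for its ratio.
Lef1: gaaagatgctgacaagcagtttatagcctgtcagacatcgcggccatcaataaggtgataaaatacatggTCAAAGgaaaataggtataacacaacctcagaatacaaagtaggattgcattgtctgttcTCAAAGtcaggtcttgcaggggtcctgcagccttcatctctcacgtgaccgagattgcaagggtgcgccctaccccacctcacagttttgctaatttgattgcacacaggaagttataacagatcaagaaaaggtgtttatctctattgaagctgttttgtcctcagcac
Gsk3b: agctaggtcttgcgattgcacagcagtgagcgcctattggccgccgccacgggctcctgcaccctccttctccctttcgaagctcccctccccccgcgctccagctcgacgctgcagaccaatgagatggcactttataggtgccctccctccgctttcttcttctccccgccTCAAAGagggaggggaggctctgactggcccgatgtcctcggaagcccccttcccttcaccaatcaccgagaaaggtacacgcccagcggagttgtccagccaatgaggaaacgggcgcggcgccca
Axin2: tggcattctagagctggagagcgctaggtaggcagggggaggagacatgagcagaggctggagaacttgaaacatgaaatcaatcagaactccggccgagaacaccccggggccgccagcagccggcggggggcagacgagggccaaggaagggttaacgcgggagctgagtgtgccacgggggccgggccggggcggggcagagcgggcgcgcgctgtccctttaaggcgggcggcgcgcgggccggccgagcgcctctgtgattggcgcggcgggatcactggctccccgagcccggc
Ankrd6: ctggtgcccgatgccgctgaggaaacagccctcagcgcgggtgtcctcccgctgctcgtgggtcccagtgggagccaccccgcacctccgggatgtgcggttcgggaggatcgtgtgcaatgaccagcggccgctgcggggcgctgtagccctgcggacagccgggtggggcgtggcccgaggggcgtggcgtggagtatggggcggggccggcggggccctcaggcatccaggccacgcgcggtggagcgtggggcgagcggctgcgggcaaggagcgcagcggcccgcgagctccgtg
The core was present in 2 of 15 windows of the 8 members looked up, namely in this Lef1 window, with 2 matches, and in the Gsk3b window, with 1. Among all 32851 windows of this length 5257 held it, a share of 0.16. The windows of Tcf7, Ctnnb1, Dvl2 and Tle3, the other Lef1 windows and all 3 of Ankrd6 had no match, which says only that these letters are not there.

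Tcf7 encodes TCF1, the main TCF/LEF protein of thymocytes. Its brighter probe, at chr11:52096035-52096094 in the mm8 build used by the array files, gave a normalised intensity of 107530 and 100928 in deficient cells, against 64411 and 64940 in control cells. Both deficient samples lay above both control samples, which differed little from each other. The ratios were 0.74 and 0.64, for a mean of 0.69 ± 0.07 or 1.61-fold (limma adjusted p = 0.0922, n = 2 arrays). The second probe, 657 bases away at chr11:52096752-52096811, gave 47071 and 48739 in deficient cells, against 36537 and 39992 in control cells. These groups again did not overlap, and the mean was 0.33 ± 0.07 or 1.25-fold (limma adjusted p = 0.125). Each probe thus read alike on the 2 arrays, but the probes differed from each other in the size of the ratio.

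The size of the Tcf7 ratio depended on the normalisation. The 201 kept probes nearest in intensity to the brighter probe had median ratios of 0.18 and 0.20 on replicates 1 and 2, and 20 of them had a higher mean ratio than it. With the array software's own processed signals the brighter probe read 0.50 and 0.36, and the probes came closer, at means of 0.43 and 0.33. Median centring, which does not correct ratios by intensity and raised the median of all kept probes to 0.12, gave means of 1.31 and 0.83. Under it both probes passed the test (limma adjusted p = 0.0341 and 0.0411), as did 3.94% of kept probes in the same direction and 0.576% in the other. Separate-channel limma, which compares channel intensities rather than ratios, called the brighter probe (adjusted p = 0.0274), beside 3.21% of kept probes called higher and 2.51% called lower, and not the second (adjusted p = 0.0709).

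**Figure D1:**
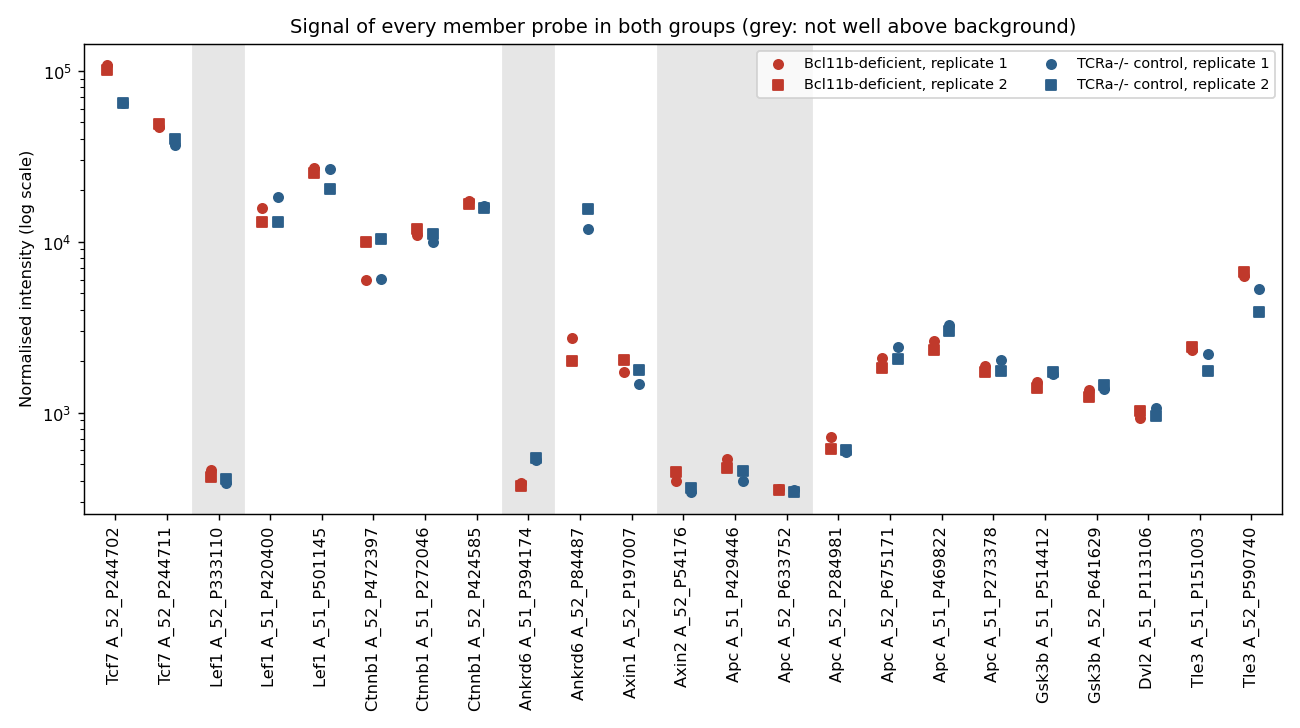
Normalised intensity (log scale) of all 23 member probes, with Bcl11b-deficient samples left of control samples, circles for replicate 1 and squares for replicate 2, and grey for the 5 probes that failed the filter. The deficient and control points are far apart for the bright Ankrd6 probe, at 2742 and 2012 against 11877 and 15435. Smaller separations include both probes of Tcf7, of Tle3 and of Gsk3b and the brightest probe of Apc.

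Lef1 encodes LEF1, the second TCF/LEF protein of thymocytes, which overlaps with TCF1 in function. Its brightest probe, at chr3:131213273-131213332 (mm8), read 26828 and 25136 in deficient cells, against 26649 and 20415 in control cells. The ranges overlapped, with 1 control sample below the other 3 samples. The mean ratio was 0.15 ± 0.10 (limma adjusted p = 0.397). A second probe, whose mm8 coordinates span 18162 bases, read 15780 and 13016 in deficient cells, against 18307 and 13106 in control cells. Its mean was -0.11 ± 0.09 (limma adjusted p = 0.458), and median centring turned it to 0.22. The Lef1 probes thus differed in sign and neither ratio exceeded the spread between arrays. The remaining probe, at chr3:131106293-131106352, was not well above background in any sample.

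The Tcf7 and Lef1 relatives of other tissues were dim. Tcf7l1, which acts mainly as a repressor, read 957 and 1117 in deficient cells, against 804 and 760 in control cells, with a mean ratio of 0.40 ± 0.11 (limma adjusted p = 0.145). Tcf7l2, best known from gut epithelium, read 873 and 893 in deficient cells, against 902 and 703 in control cells, a mean ratio of 0.15 ± 0.13 (limma adjusted p = 0.484). The deficient and control values overlapped for Tcf7l2 and did not for Tcf7l1.

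Ctnnb1 encodes beta-catenin, the coactivator that links Wnt signals to TCF/LEF proteins. Its brightest probe, at chr9:120808854-120808913 (mm8), read 17236 and 16520 in deficient cells, against 16224 and 15685 in control cells. The groups did not overlap, but the mean ratio was 0.08 ± 0.07 (limma adjusted p = 0.490). A second probe, 436 bases away, was printed at 10 spots per array and so shows the error of a single spot. It read 10870 and 11810 in deficient cells, against 9913 and 11121 in control cells, with overlapping groups. After 1 spot flagged as an outlier was left out, its spots averaged 0.133 on replicate 1 (SD 0.024, 9 spots) and 0.087 on replicate 2 (SD 0.035, 10 spots). The mean over the arrays was 0.11 ± 0.07 (limma adjusted p = 0.380). Spots of one array share their RNA and are not replicates, and their SD was smaller than the gap between the arrays, which had a median of 0.13 over all kept probes.

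The remaining Ctnnb1 probe, 3443 bases from its neighbour, behaved otherwise in level but not in ratio. It read 5960 and 10000 in deficient cells, against 6038 and 10328 in control cells. Both channels were thus higher on replicate 2 than on replicate 1, while the ratio stayed near 0, at -0.02 and -0.05. The other Ctnnb1 probes did not show such a step. The mean ratio of this probe was -0.03 ± 0.07 (limma adjusted p = 0.781), with 0.22 under median centring and 0.01 after centring on probes of like intensity.

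**Figure D2:**
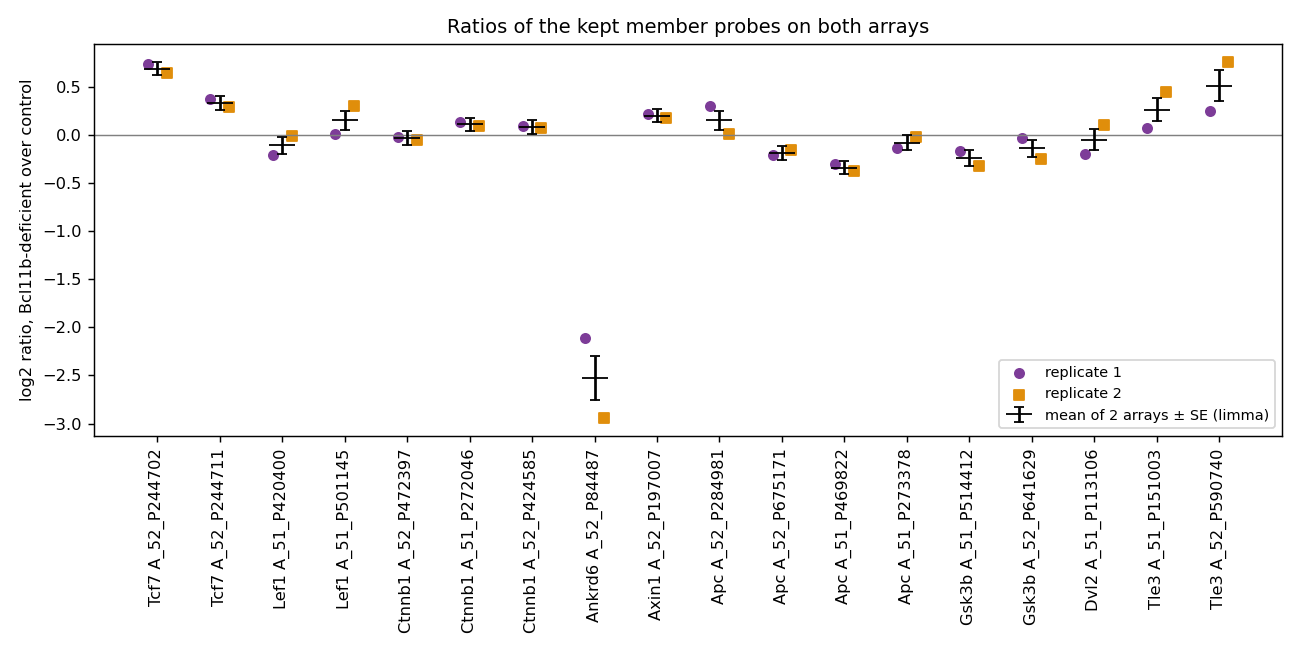
log2 ratios of deficient over control for the 18 kept member probes, with circles for replicate 1, squares for replicate 2, and a bar and whiskers for the mean of the 2 arrays ± SE (limma). The Ankrd6 probe lies at -2.11 and -2.94, and the other 17 lie between means of -0.34 and 0.69.

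Tle3 encodes a Groucho/TLE corepressor that TCF/LEF proteins recruit when beta-catenin is absent. Its brighter probe, at chr9:61215623-61215682 (mm8), read 6301 and 6622 in deficient cells, against 5311 and 3900 in control cells. The deficient samples lay close together above both control samples, which were spread more widely. The ratios of 0.25 and 0.76 gave a mean of 0.51 ± 0.16 or 1.42-fold (limma adjusted p = 0.168). The other probe, 703 bases away, read 2333 and 2403 in deficient cells, against 2215 and 1760 in control cells. Its ratios were 0.07 and 0.45 and averaged 0.26 ± 0.12 (limma adjusted p = 0.268). At both probes the ratio was larger on replicate 2, and the control signal was lower there. The gap of 0.52 between the arrays at the brighter probe was wider than that of 93.2% of kept probes.

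The other TLE genes went both ways. Tle6 read 14387 and 12477 in deficient cells, against 8323 and 5945 in control cells, giving 0.93 ± 0.10 on average (limma adjusted p = 0.0924). Tle2, named after its values were seen, read 8528 and 6373 in deficient cells, against 5009 and 3915 in control cells, with 0.74 ± 0.07 (limma adjusted p = 0.0922). Both were thus higher in each deficient sample than in either control sample. Tle5, which encodes a short family member without the WD repeat domain, read 12335 and 12410 in deficient cells, against 16377 and 15585 in control cells, with -0.37 ± 0.07 (limma adjusted p = 0.115). Tle1 and Tle4 had means of 0.01 ± 0.18 and -0.11 ± 0.07.

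Axin1 encodes the scaffold of the destruction complex. Its only probe, whose mm8 coordinates on chromosome 17 span 888 bases, read 1716 and 2022 in deficient cells, against 1472 and 1784 in control cells. The groups overlapped, since levels were higher on replicate 2 in both channels, but the ratios of 0.22 and 0.18 were alike. The mean was 0.20 ± 0.07 (limma adjusted p = 0.192). Axin2, a negative regulator that is itself a direct Wnt target and is used as a readout of the pathway, was not well above background in any of the 4 samples. Its probe, at chr11:108766756-108766815, read 398 and 448 in deficient cells, against 342 and 363 in control cells, and no fold is given.

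Apc encodes the large scaffold that holds beta-catenin in the complex. Its brightest probe, at chr18:34443307-34443366 (mm8), read 2626 and 2313 in deficient cells, against 3242 and 3011 in control cells. Both deficient samples lay below both control samples, and the ratios of -0.30 and -0.38 gave a mean of -0.34 ± 0.07 (limma adjusted p = 0.121). A probe that overlaps it by 4 bases, printed at 10 spots per array, read 2086 and 1831 in deficient cells, against 2409 and 2048 in control cells, and its groups overlapped. Its spots averaged -0.208 on replicate 1 (SD 0.055) and -0.162 on replicate 2 (SD 0.051). The mean was -0.19 ± 0.07 (limma adjusted p = 0.212). The probe at the highest coordinates read 1861 and 1735 in deficient cells, against 2043 and 1755 in control cells. Its ratios were -0.14 and -0.02 (limma adjusted p = 0.552), and its mean of -0.08 turned to 0.05 under median centring. The dimmest kept probe, at the lowest coordinates of the 4, had ratios of 0.30 and 0.01 (limma adjusted p = 0.394). At 720 and 611 in deficient cells, against 586 and 606 in control cells, it lay close to the limit of detection. The kept probes of Apc thus differed in sign. The remaining 2 Apc probes were not well above background in any sample.

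Gsk3b encodes the kinase that marks beta-catenin for degradation. Its brighter probe, whose mm8 coordinates on chromosome 16 span 3646 bases, read 1501 and 1389 in deficient cells, against 1687 and 1730 in control cells. Both deficient samples lay below both control samples, with a mean ratio of -0.24 ± 0.08 (limma adjusted p = 0.181). The other probe, at chr16:38162670-38162729, read 1348 and 1225 in deficient cells, against 1381 and 1456 in control cells, a mean ratio of -0.14 ± 0.09 (limma adjusted p = 0.375). The groups did not overlap there either, though on replicate 1 the ratio was only -0.03. With processed signals the Gsk3b means were -0.41 and -0.25.

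Dvl2 encodes a Dishevelled protein, which carries the signal from Frizzled receptors to the destruction complex. Its only probe, at chr11:69825985-69826044 (mm8), read 930 and 1023 in deficient cells, against 1068 and 954 in control cells. The ratio was below 0 on replicate 1, at -0.20, and above it on replicate 2, at 0.10 (mean -0.05 ± 0.11, limma adjusted p = 0.785). Dvl1 also differed in sign between the arrays, with -0.30 and 0.09, and Dvl3 had no kept probe.

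Ankrd6 encodes diversin, an ankyrin repeat protein that brings casein kinase I epsilon to the destruction complex and also binds Dishevelled, through which it acts in planar cell polarity. Its bright probe, at chr4:33132656-33132715 (mm8), read 2742 and 2012 in deficient cells, against 11877 and 15435 in control cells. The groups were far apart, and the control signal was the higher one on each array. The ratios of -2.11 and -2.94 averaged -2.53, or 0.174 of the control level, and this was the lowest mean of all 21538 kept probes. The gap of 0.82 between its 2 arrays was wider than that of 97.9% of kept probes. Over all kept probes 145 (0.673%) were at least 2-fold higher and 47 (0.218%) at least 2-fold lower on both arrays. With processed signals these counts were 374 and 259, and with median centring 283 and 31. Processed signals gave Ankrd6 -2.26 and -3.28.

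The second Ankrd6 probe was not well above background in any sample, with 387 and 371 in deficient cells, against 526 and 539 in control cells. The array files place only 16 bases of it, which overlap the bright probe by 8 bases. It therefore gives no second measurement of the gene. Casein kinase I epsilon, encoded by Csnk1e, read 52400 and 47676 in deficient cells, against 62174 and 84642 in control cells. Its ratios were -0.25 and -0.83 and averaged -0.54 ± 0.17 (limma adjusted p = 0.175), with 0.03 under median centring.

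The 5 genes nearest to Ankrd6 in ratio were Smoc1, Scn2b, Tmcc3, Ppfibp2 and Tox3. Likeness was the Euclidean distance over the log2 ratios of the 2 arrays, and ran from 0.28 for Smoc1 to 1.10 for Tox3. With 2 arrays this says only that these genes had similarly low ratios on both.

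Among the 17 kept member probes other than that of Ankrd6, 9 were higher on both arrays, against 36.6% of all kept probes, and 7 were lower on both, against 36.9%. The median ratio of the 17 was 0.08, and that of all kept probes 0.00. The median size of the ratio, regardless of sign, was 0.15 in both. By unadjusted limma p under 0.05, 5 of the 17 differed, against 27.0% of all kept probes, so that share was close to the background. In size the members' ratios were thus much as those of other probes. Only 1 of the 17 differed in sign between the arrays, against 5699 of 21538 kept probes. Several of the 17 share a gene, so they are not independent. Ankrd6, picked for its low ratio, lay far outside, and the brighter Tcf7 probe ranked 569 from the top.

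**Figure D3:**
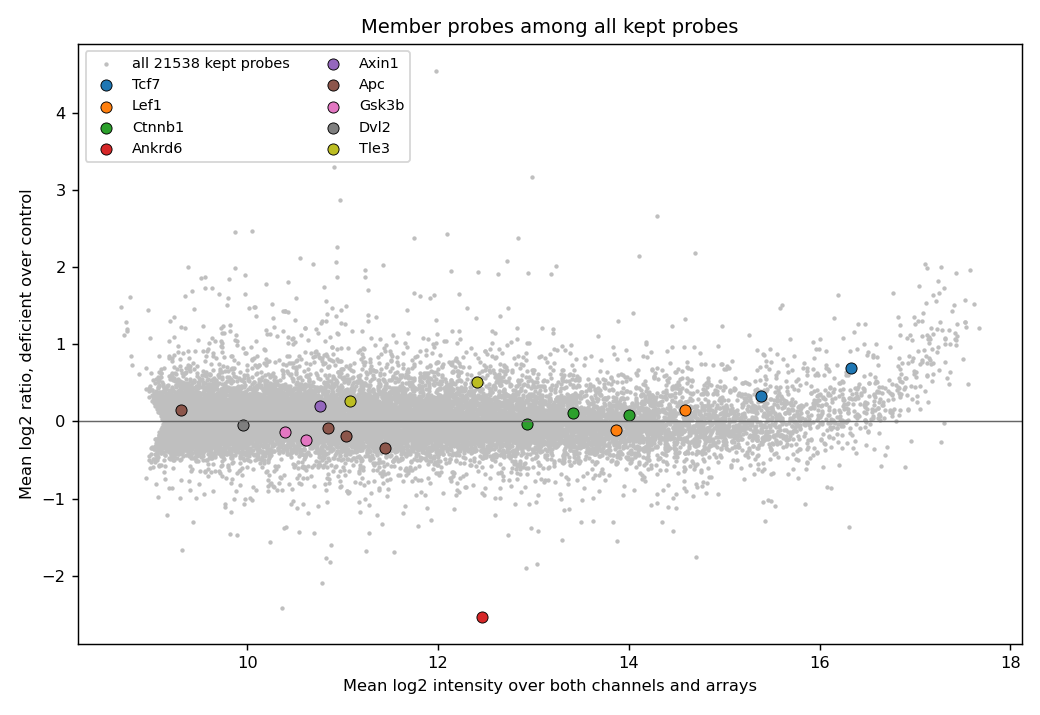
Mean log2 ratio of deficient over control against mean log2 intensity for all 21538 kept probes (grey) and the member probes (coloured by gene). Ankrd6 lies below all other points at -2.53, and the brighter Tcf7 probe, at 0.69, lies where the brightest probes turn upward.

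The rest of the Wnt pathway was described from 7 lists that together named 137 genes, 136 of them on the arrays and 90 with a kept probe. One value was used per gene, from its brightest kept probe. On both arrays 33 of the 90 genes read higher and 29 read lower, against 36.4% and 38.5% of all genes, and their median ratio was 0.01. None passed limma's test over all kept probes (0.0% of genes), while 25 had an unadjusted p under 0.05, against 29.1% of all genes. These shares were close to the background. The 29 lower genes include Bcl11b, the floxed gene. Median centring called 6 of the 90 higher and 0 lower (3.94% and 0.576% of kept probes), and separate-channel limma 6 higher and 3 lower (3.21% and 2.51%). Macf1, Tle6 and Gata3 were called higher by both. So was Zbtb7b, but it passed the filter only through the deficient channel, in which it is higher, so no support is drawn from its calls. The 3 genes called lower were Wnt11, Ror2 and Frat1. Wnt11 and Ror2 passed the filter only through the control channel, in which they are higher, so no support is drawn from their calls either.

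Wnt ligands were near the limit of detection. Of 21 ligand and secretion genes, 10 had a kept probe, with a median of -0.12. Of these 7 were lower on both arrays and 1 higher, against 38.5% and 36.4% of all genes. Wnt11 was lowest, at 566 and 528 in deficient cells against 767 and 731 in control cells (mean -0.45 ± 0.07, limma adjusted p = 0.102). On replicate 2 the deficient signal of Wnt11 did not clear the background. Wnt6 was highest, at 0.20 ± 0.10, but its control signal on replicate 2 was also at background. The deficient signals of Wnt4, Wnt7a and Wnt8b were likewise at background on replicate 2, so these ratios are imprecise. Like Wnt11, these genes passed the filter only through the control channel, in which they are higher, and Wnt6 only through the deficient channel. The filter thus favoured the direction they show, and nothing is read from the counts or from the test of Wnt11. Wls, which encodes the carrier that takes Wnt proteins to the cell surface, was the brightest of these genes and read -0.18 ± 0.08. The list median was -0.05 among the 5 genes with both channels well above background.

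Of 18 receptor genes, 7 had a kept probe, with a median of 0.07. Of these 4 were higher and 2 lower on both arrays, against 36.4% and 38.5% of all genes. Fzd10, a Frizzled receptor gene, read 2184 and 1359 in deficient cells, against 6523 and 2462 in control cells. The deficient samples lay below both control samples, but levels of both groups were higher on replicate 1, and the ratios of -1.58 and -0.86 gave a mean of -1.22 ± 0.21 (limma adjusted p = 0.107). Fzd5 was highest and at least 1.19-fold higher, since the control channel was at background on both arrays (limma adjusted p = 0.162). Fzd5, Lrp6 and Lgr4 passed the filter only through the deficient channel, in which they are higher, and Ror2 only through the control channel. Nothing is read from the test of Fzd5 or from the receptor counts. Lrp6, a coreceptor, read 0.06 ± 0.07, and Lrp5 gave -0.15 and 0.62. Among secreted and membrane modulators, 5 of 20 had a kept probe. Of these 2 were higher and 1 lower on both arrays, against the same 36.4% and 38.5% of all genes. Apcdd1, which encodes a membrane inhibitor of Wnt signals, read 0.49 ± 0.10 (limma adjusted p = 0.118), and Notum, which encodes an enzyme that inactivates Wnt proteins, -0.27 ± 0.07 (limma adjusted p = 0.145).

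**Figure D4:**
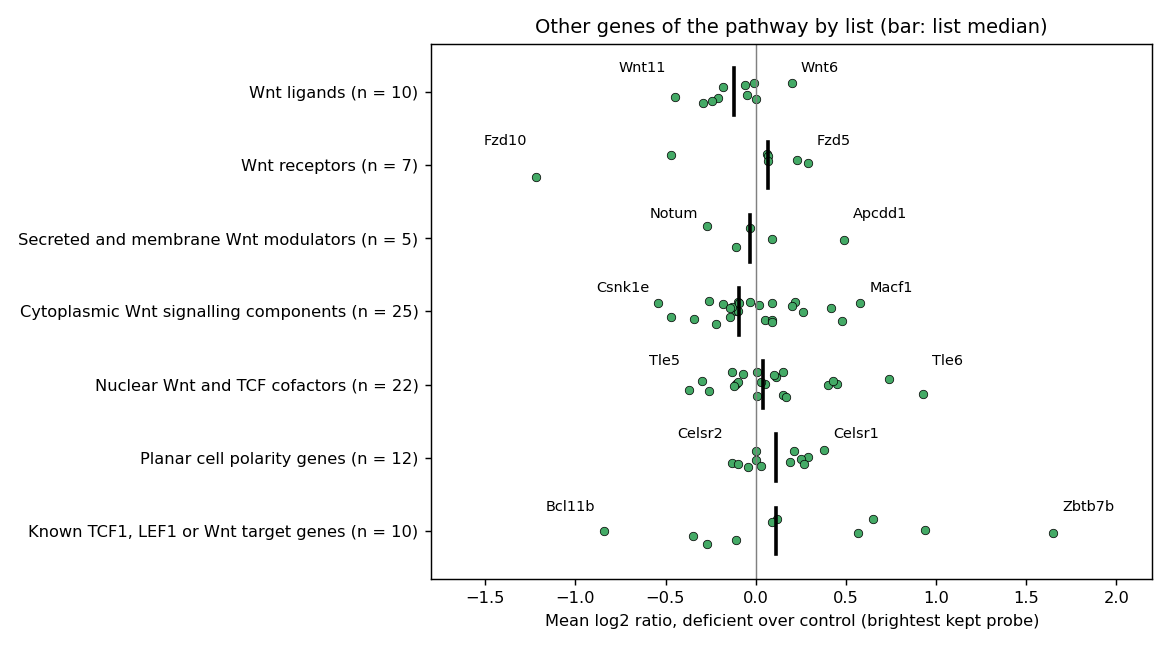
Mean log2 ratios of deficient over control for the genes of 7 pathway lists, 1 point per gene from its brightest kept probe, with the list median as a bar and the lowest and highest gene named. List medians run from -0.12 for Wnt ligands to 0.11 for planar cell polarity and target genes, while Fzd10 (-1.22) lies far below its list. The Zbtb7b point is the fitted ratio, with its control signal at background, and stands only for a bound of at least 2.69-fold.

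Of cytoplasmic components 25 of 29 genes were kept, with a median of -0.09 that became 0.20 under median centring. On both arrays 7 were higher and 10 lower, against 36.4% and 38.5% of all genes. Apc2 and Dact1, among the 10 lower, passed the filter only through the control channel, in which they are higher. The list median was -0.06 among the 22 genes with both channels well above background. Csnk1e was the lowest of the 25 kept genes in the setting used here. Macf1, which encodes a cytoskeletal linker that binds Axin, was the highest, with 7841 and 8283 in deficient cells against 5480 and 5285 in control cells (mean 0.58 ± 0.08, limma adjusted p = 0.0987). Of nuclear cofactors, 22 of 23 had a kept probe, with a median of 0.04 and with Tle6 and Tle5 at the ends. On both arrays 9 were higher and 4 lower, against the same shares of 36.4% and 38.5% of all genes. Genes of planar cell polarity, the branch in which diversin also acts, had 12 of 15 with a kept probe, with a median of 0.11. Of these 5 were higher and 2 lower on both arrays, again against 36.4% and 38.5% of all genes. Celsr1 (0.38 ± 0.24) and Celsr2 (-0.13 ± 0.08), which encode polarity cadherins, were their extremes. Celsr3, 1 of the 5 higher, passed the filter only through the deficient channel, in which it is higher. The list median was 0.03 among the 11 genes with both channels well above background.

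Of 15 genes known as targets of TCF1, LEF1 or Wnt signals, 10 had a kept probe, with a median of 0.11. Of these 5 were higher and 4 lower on both arrays, against 36.4% and 38.5% of all genes. Zbtb7b encodes the CD4 lineage factor ThPOK, and 0.818% of all genes were 2-fold higher on both arrays. By brightest kept probes Zbtb7b was the only gene of the 7 lists at least 2-fold changed on both. It read 1220 and 1809 in deficient cells, against 474 and 472 in control cells. In control cells it was at background on both arrays, so it was at least 2.69-fold higher. Because it passed the filter only through the deficient channel, no support is drawn from its test (limma adjusted p = 0.0922). Bcl11b, itself a TCF1 target, was the lowest. It is also the floxed gene, so its lower reading is part of the design and is not read as that of a target. Its brighter probe is the one counted here, and its other kept probe read 38.7% and 22.4% of control, at least 2-fold lower on both arrays. Ccnd1, Sp5, Nkd1, Rnf43 and Lgr5, known as Wnt targets in other tissues, had no kept probe, like Axin2. Cd44 and Myc were well above background in every sample. Cd44, which encodes an adhesion receptor, read 3212 and 3409 in deficient cells, against 2030 and 1461 in control cells (mean 0.94 ± 0.17, limma adjusted p = 0.108). Myc, which encodes a growth regulator, read 18522 and 20880 in deficient cells, against 16185 and 10796 in control cells, with ratios of 0.19 and 0.95. Both genes were higher in each deficient sample than in either control sample. Gata3, which TCF1 activates in early T cells and which was named after its values were seen, read 10471 and 9226 in deficient cells, against 6920 and 5669 in control cells (mean 0.65 ± 0.08, limma adjusted p = 0.0936). Bcl2l1, which supports DP cell survival, read 0.12 ± 0.07.

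**Figure D5:**
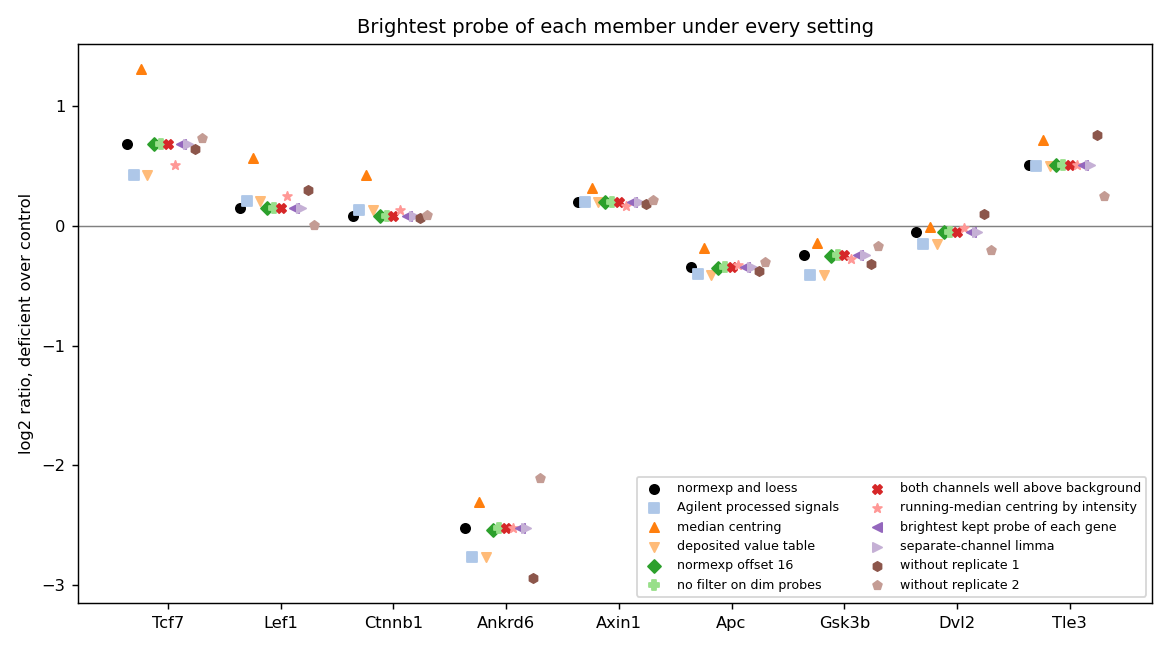
log2 ratio of deficient over control for the brightest kept probe of each member under the setting used here (black, normexp and loess), 9 other settings and each array alone. Ankrd6 stays between -2.94 and -2.11, Tcf7 between 0.43 and 1.31, and the sign of Dvl2 differs between the arrays.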

How the data were processed

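Scans were quantified by the authors in Feature Extraction 9.5.3.1 from Agilent, per the submitters' processing notes. The deposited mean and local background signals are uncorrected scanner intensity. The deposited processed signals are intensity corrected for background and dye, per the file headers, and the deposited LogRatio is log10 of processed Cy5 over Cy3. The value table of the series has no stated unit; spot by spot it differs from the log10 ratio by at most 0.005, and each array's median is 0.

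Signals were corrected by normexp (offset 50) and normalised by loess within arrays, with control and outlier spots at weight 0, using limma 3.58.1 (R 4.3.3, statmod 1.5.0). Replicate spots were averaged by probe. A probe was kept if one channel was well above background on both arrays (21538 of 41174). Symbols came from the RefSeq table by accession (24496 probes), symbol (6234) or synonym (2386). Each probe's mean ratio was tested against 0 with limma (1 residual and 2.46 prior degrees of freedom), adjusted over all kept probes. Levels are channel intensities after loess and Aquantile, and bounds use the dimmest probe well above background. The test was checked on simulated data. Members and lists were chosen with earlier results of these data known. By rule, genes were named where 2-fold changed on both arrays, otherwise as the extremes of each list, with the 5 nearest to Ankrd6. Further pathway genes (Tcf7l1, Tcf7l2, Tle1, Tle2, Tle4, Dvl1, Lrp5, Lrp6, Wls, Myc, Cd44, Gata3 and Bcl2l1) were chosen after their values were seen. The promoter table is RefSeq's, build GRCm38.p6; all probe positions are mm8. The Axin1 and Apc start regions were not used here.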

Additional observations from a re-analysis of the deposited data

How the results depend on the processing

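For the 18 kept member probes, processed signals, the deposited value table, an offset of 16, no filter on dim probes and both channels above background changed neither sign nor side of the threshold. Separate-channel limma and median centring put the brighter Tcf7 probe past the test, and median centring the second Tcf7 probe too. Median centring turned Lef1 to 0.22, Ctnnb1 to 0.22 and Apc to 0.05 at 1 probe each, running-median centring (chosen after the data were seen) turned that Ctnnb1 probe to 0.01, and Dvl2 ranged from -0.20 to 0.10 on single arrays. The cause was not tested.

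Kept probes past limma's test, none in the setting used, numbered 24 higher and 6 lower with processed signals, 13 and 4 with the value table, 848 and 124 with median centring, and 691 and 540 with separate-channel limma. Probes at least 2-fold changed, 145 higher and 47 lower, numbered 374 and 259 with processed signals, 374 and 258 with the value table, and 283 and 31 with median centring. On 1 array alone they ranged from 208 to 418 higher and from 84 to 136 lower. The median of Wnt ligands was -0.21 with processed signals and the value table, -0.06 without the filter and -0.05 with both channels above background. That of receptors was 0.19 with processed signals and the value table and -0.04 without the filter. Median centring gave 0.20 for cytoplasmic components, 0.20 for nuclear cofactors and 0.35 for target genes, and no filter gave cytoplasmic components 0.00. On single arrays list medians ranged from -0.18 to -0.11 for ligands, -0.24 to 0.02 for modulators, -0.09 to 0.02 for cytoplasmic components, 0.01 to 0.10 for receptors, 0.00 to 0.13 for nuclear cofactors, 0.00 to 0.23 for planar cell polarity genes and 0.05 to 0.15 for target genes. No paired analysis was possible because the labels give 1 group of ratios, in which each array already pairs its samples. Dim probes, near background in both channels, limit what can be said of Axin2 and of most ligands and receptors.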
